A study of Homo sapiens with 16 samples.

Results

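The mitotic spindle and G2/M genes described here are 53 protein-coding genes chosen by symbol for their work in mitosis, and each was found by its Ensembl gene identifier among the 60620 genes present in every count table. They comprise 11 genes of entry into mitosis, 3 mitotic kinases, 5 spindle checkpoint genes, 4 genes of anaphase, 7 of the centromere and kinetochore, 4 of the chromosomal passenger complex, 6 kinesins, 8 spindle microtubule proteins, 3 genes of cytokinesis and 2 genes of chromosome structure. All 53 passed the filter on low counts in every comparison. RNA was sequenced from MDA-MB-231, a line of human breast cancer cells of the triple-negative type, in 16 libraries. Untreated wild-type cells (parental 231) and cells with the TXNIP gene disrupted by a CRISPR/Cas9 plasmid (231:TKO) had 2 libraries each. Another 4 groups of 3 libraries were 231:TKO and parental 231 cells given either a non-targeting siRNA (siNT) or an siRNA against MYC (siMyc), with 48 hours as the labelled time. The study's methods describe 231:TKO cells as clones grown from isolated cells, and how many clones stand behind the libraries was not given, so the knockout and the history of a clone cannot be told apart. The labels call the libraries of a group replicates without naming separate cultures. The study describes those of the untreated cells and of siRNA-treated 231:TKO as biological replicates. The p-values measure the spread between these libraries.

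A cell enters mitosis when cyclin B bound to CDK1 becomes active. The kinases PLK1, AURKA and AURKB, the motors of the kinesin family and the proteins that bundle microtubules then build the spindle, and the spindle checkpoint holds the anaphase-promoting complex (APC/C) until every kinetochore is attached. Most of these genes are transcribed in a wave in G2, held down earlier in the cycle by the DREAM complex and switched on by B-MYB (MYBL2) with the MuvB core (LIN9) and by FOXM1, through a promoter element called CHR and through CCAAT boxes that bind NF-Y. MYC, a transcription factor that binds E-boxes, drives growth and cell cycle entry, and TXNIP is a thioredoxin-binding protein that limits glucose uptake. In RNA pooled from a whole culture, fewer cells in G2 and M and less RNA per cell cannot be told apart.

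Promoter windows from RefSeq (GRCh38.p14), running from 250 bases before to 50 bases after a gene's start, were found for 45 of the 53 genes, 6 of them with several windows. Altogether 3 patterns were searched, each on both strands. The CHR was taken as the letters TTTGAA and also, as a variant of it, the letters TTCGAA. The NF-Y box was taken as the letters CCAAT, which can share an end base with a CHR, and the E-box as CACGTG, which can share none with either. The windows of the 6 genes with the largest response to siMyc in 231:TKO are shown, so that the genes that moved most can be read letter by letter. They do not cover every arrangement, since KIF2C, TACC3 and CKAP2 had no match and PLK1 and CENPF held all 3 patterns. Each is 300 bases, printed 5′ to 3′ on the strand of the gene, with the start as base 251 and with capitals marking every match to the 3 patterns.
KIF11, chr10:92592880-92593179, strand +: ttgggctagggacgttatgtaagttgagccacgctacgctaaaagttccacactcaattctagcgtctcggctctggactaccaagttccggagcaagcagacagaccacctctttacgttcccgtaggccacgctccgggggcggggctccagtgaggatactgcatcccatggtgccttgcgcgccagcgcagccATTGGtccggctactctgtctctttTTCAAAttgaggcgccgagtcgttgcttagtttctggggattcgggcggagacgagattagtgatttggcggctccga
BUB1B, chr15:40160819-40161118, strand +: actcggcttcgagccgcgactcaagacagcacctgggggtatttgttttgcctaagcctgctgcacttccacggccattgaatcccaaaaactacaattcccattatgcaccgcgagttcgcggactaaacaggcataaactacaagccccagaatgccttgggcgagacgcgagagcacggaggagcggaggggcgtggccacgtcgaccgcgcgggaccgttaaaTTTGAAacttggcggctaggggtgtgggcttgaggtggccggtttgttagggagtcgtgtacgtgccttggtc
MAD2L1, chr4:120066799-120067098, strand -: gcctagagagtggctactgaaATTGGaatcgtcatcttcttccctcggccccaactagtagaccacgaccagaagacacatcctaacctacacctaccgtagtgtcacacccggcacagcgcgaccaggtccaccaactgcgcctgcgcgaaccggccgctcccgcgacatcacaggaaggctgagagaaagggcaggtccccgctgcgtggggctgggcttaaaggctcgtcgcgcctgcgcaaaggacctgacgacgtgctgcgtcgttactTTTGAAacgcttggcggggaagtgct
HMMR, chr5:163460382-163460681, strand +: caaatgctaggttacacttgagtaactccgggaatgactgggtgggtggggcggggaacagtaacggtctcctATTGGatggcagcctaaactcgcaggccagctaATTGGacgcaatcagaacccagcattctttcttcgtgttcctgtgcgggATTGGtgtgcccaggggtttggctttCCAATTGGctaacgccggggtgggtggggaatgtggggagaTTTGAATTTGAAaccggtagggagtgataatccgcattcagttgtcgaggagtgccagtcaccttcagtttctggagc
CENPE, chr4:103198294-103198593, strand -: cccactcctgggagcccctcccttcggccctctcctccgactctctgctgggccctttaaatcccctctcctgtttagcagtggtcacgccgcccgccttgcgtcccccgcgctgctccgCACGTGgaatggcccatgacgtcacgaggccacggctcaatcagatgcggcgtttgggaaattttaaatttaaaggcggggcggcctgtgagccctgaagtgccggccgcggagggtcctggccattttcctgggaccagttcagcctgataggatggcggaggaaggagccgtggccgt
KIF20A, chr5:138178862-138179161, strand +: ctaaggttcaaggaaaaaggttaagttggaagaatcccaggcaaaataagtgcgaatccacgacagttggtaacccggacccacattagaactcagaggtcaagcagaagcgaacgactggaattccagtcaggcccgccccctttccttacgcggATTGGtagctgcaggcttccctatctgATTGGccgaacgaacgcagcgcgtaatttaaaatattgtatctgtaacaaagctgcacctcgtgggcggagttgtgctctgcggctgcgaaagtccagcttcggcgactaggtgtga
KIF11 had a CHR with its first base 28 bases before the start and a CCAAT 53 bases before it, and BUB1B had a CHR at 23 bases before the start with no CCAAT. HMMR held 2 CHR and 5 CCAAT matches, of which 2 overlapped each other. CENPE was the only one of the 6 with an E-box, at 130 bases before the start, and it had neither of the other patterns. KIF20A had 2 CCAAT matches and no CHR.

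Over all 45 genes with a window, 34 (75.6%) held a CHR, against 19.5% of the 27305 genes in the promoter table, and 37 (82.2%) held a CCAAT, against 39.7%. Both patterns stood together in 30 genes (66.7%, against 7.85%), and 24 genes (53.3%, against 12.9%) had at least 2 CCAAT matches. The E-box was found in 5 genes (11.1%, against 8.77%), namely CCNB1, PLK1, CENPE, CENPF and ANLN. The matches were not spread evenly. In 23 genes (51.1%, against 3.43% of all genes) a CHR began within the 50 bases before the start, and in 34 genes (75.6%, against 21.9%) a CCAAT began within the 100 bases before it; these ranges were chosen after the positions had been seen. The siMyc response described below had medians in 231:TKO of -0.30 on the log2 scale for the 34 genes with a CHR and -0.31 for the 11 without, of -0.31 for the 37 with a CCAAT and -0.38 for the 8 without, and of -0.33 for the 5 with an E-box and -0.31 for the 40 without. These medians were not tested against each other. A match in these letters is a description of the window and says nothing of binding.

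**Figure D1:**
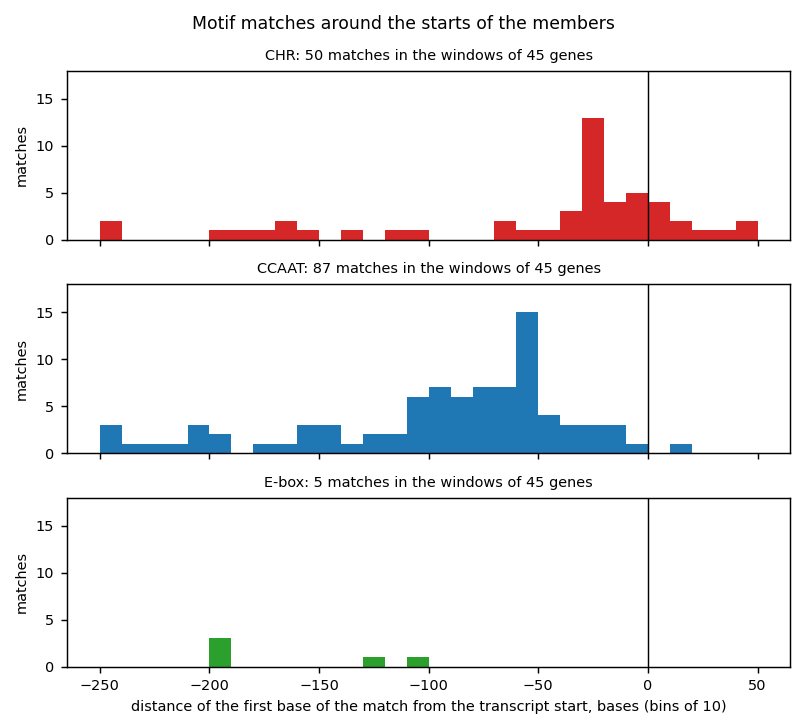
Position of each pattern match in the promoter windows of the 45 genes (horizontal axis, bases from the start site in bins of 10; vertical axis, number of matches), with a panel for each of CHR, CCAAT and the E-box. The 50 CHR positions pile up just before the start, the 87 CCAAT positions lie mostly within the 100 bases upstream, and the 5 E-box positions lie farther upstream than most of either. For genes with several windows, each distinct distance was counted once, so a site in overlapping windows can count more than once.

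Total counts per library ran from 18953668 to 59799444. VIM and CD44, which mark mesenchymal MDA-MB-231 cells, were among the highly expressed genes. Of 5 markers set down as low for this line, ESR1 and PGR were near 0 in every group, whereas ERBB2 lay at 76.2 to 106 CPM over the 16 libraries, EPCAM at 12.2 to 31.3 and CDH1 at 0.267 to 9.42, the latter highest in parental 231. TXNIP fell in 231:TKO with siNT relative to parental 231 with siNT (-5.42 ± 0.11, adjusted p = 2.74e-10), and lay at 12.7 and 46.8 CPM (counts corrected for library size) in the untreated 231:TKO libraries against 289 and 289 CPM in the untreated parental ones, where the test did not pass (adjusted p = 0.0587). MYC fell under siMyc in 231:TKO (-1.21 ± 0.059, adjusted p = 1.69e-11) and in parental 231 (-0.96 ± 0.086, adjusted p = 0.0297). Here and below, a value such as -1.21 ± 0.059 is a log2 fold change with its standard error, each adjusted p comes from the quasi-likelihood test of edgeR, adjusted over all genes tested by the Benjamini-Hochberg method, a gene rose or fell when that p was at most 0.05, and CPM are scaled by TMM factors within each comparison, so the same library can differ slightly between comparisons. A pair of libraries stood apart, parental 231+siNT replicate 1 and parental 231+siMyc replicate 3. In both, long genes were low and short genes high relative to the other 2 libraries of their group, with a Pearson correlation of the deviation with log2 exonic length of -0.57 and -0.55 across 13448 genes and of -0.73 and -0.72 across the 53. MKI67, which has 12845 exonic bases, deviated by -1.56 and -1.33 log2 units, and CKS2, with 616, by 0.49 and 0.39. Every result in siRNA-treated parental 231 cells rests in part on this pair. Counts are mostly given with and without it, as are most named genes of the 53 for siMyc in parental 231. With siNT only some named genes have a value without parental 231+siNT replicate 1. In the tests of a difference between effects or responses no named gene has a value without the pair. The values by role, the longer gene lists and the correlation across the 53 genes are given with the pair alone.

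**Figure D2:**
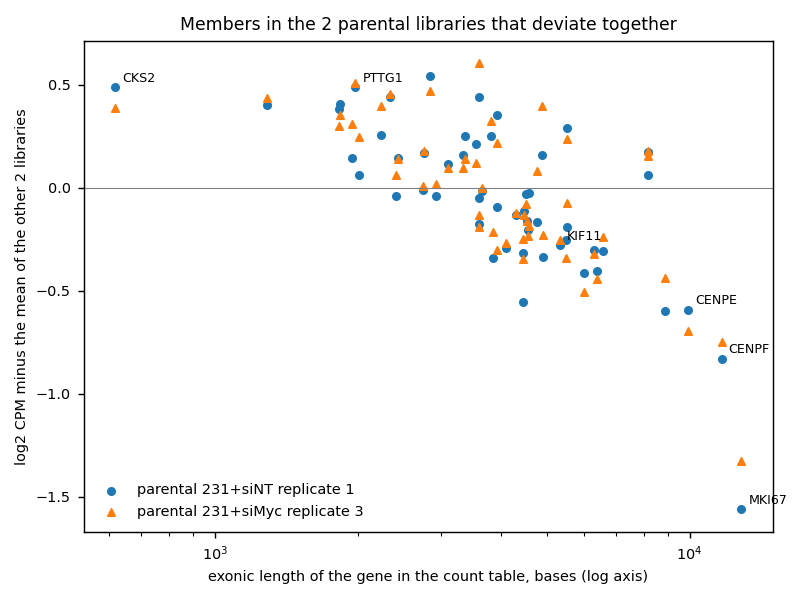
Deviation of each of the 53 genes in the 2 parental libraries that stood apart from the mean of the other 2 libraries of their group (vertical axis, log2 CPM), against exonic length (horizontal axis, bases, log scale), with circles for parental 231+siNT replicate 1 and triangles for parental 231+siMyc replicate 3. Short genes such as CKS2 lie above 0 and long genes such as MKI67 and CENPF far below it in both libraries.

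Levels per transcript length (TPM) set the 53 genes apart from each other. In 231:TKO+siNT the highest was CKS2, a small subunit of CDK complexes, at 790.3 ± 10.3 TPM (mean ± SD, n = 3), followed by UBE2C, the ubiquitin-conjugating enzyme of the APC/C, at 535 ± 12.2 TPM and CDC20, which activates the APC/C, at 447 ± 3.77 TPM. TOP2A, which untangles DNA, at 421 ± 31.2 TPM and TPX2, an activator of AURKA, at 398 ± 14.3 TPM were closer to each other than their spread. The lowest were HMMR, a spindle-associated protein, at 16.9 ± 0.806 TPM and NUSAP1, a microtubule bundler, at 3.58 ± 0.255 TPM. NUSAP1 and PRC1 share 81.4% and 57.6% of their exonic bases with other genes of the same strand, so their counts are uncertain, as are those of CKS1B, PTTG1 and KIF4A, which have near-identical copies. Counting used single reads in the untreated libraries and read pairs in the siRNA-treated ones, and levels were not compared between them.

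Knockdown of MYC in 231:TKO cells was followed by lower RNA of nearly the whole set. Of the 53 genes 51 fell, 1 rose (CDC25B) and 1 did not pass (SPC24), where 13.9% of the 22450 genes tested fell and 13.3% rose. Their median log2 fold change was -0.31, a change of -19.4%, with a range of -0.73 to 0.15, while the median over all genes tested was 0.0069. In 52 of the 53 genes every siMyc library lay below every siNT library, as it did in 19.6% of all genes tested, and in each of the 3 siMyc libraries 52 of the 53 lay below the siNT mean. The changes were small and even, and only KIF11, BUB1B and MAD2L1 had a log2 fold change below -0.5. In a single fit of the 12 siRNA-treated libraries 19 of the 53 passed, beside 5.28% of all genes higher and 4.38% lower, and there the biological coefficient of variation was 11.7%, against 5.26% in the 231:TKO libraries alone.

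**Figure D3:**
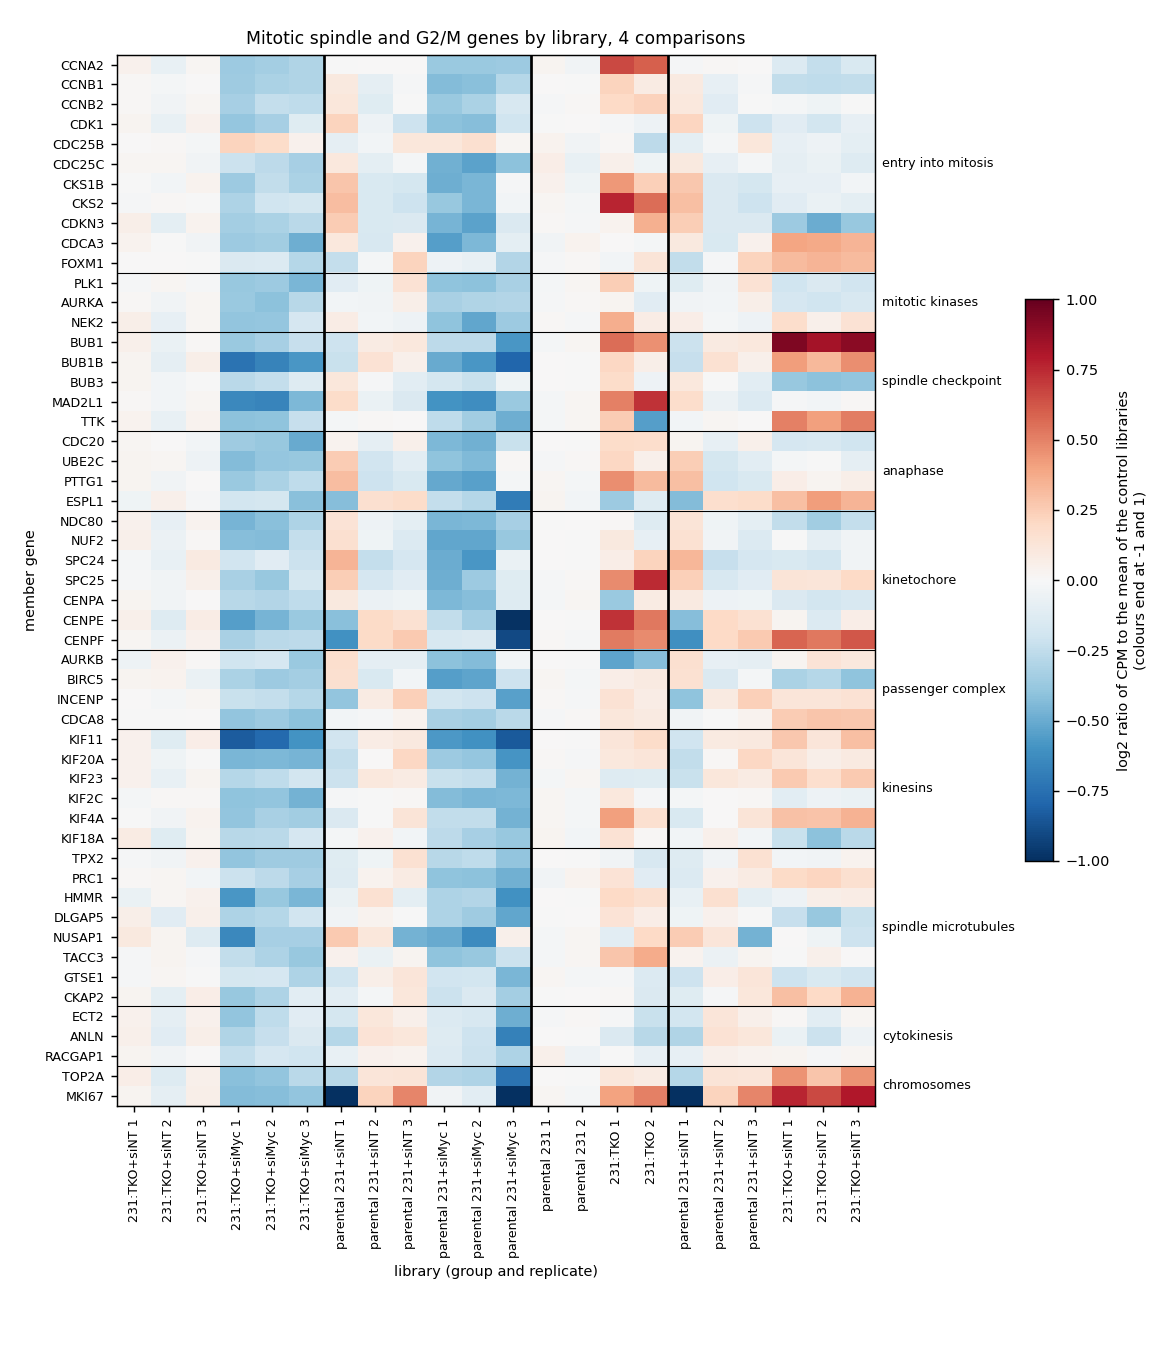
Heat maps of the 53 genes (rows, grouped by role) in each library of the 4 comparisons (columns), coloured by log2 ratio to the mean of the control group of that comparison. Under siMyc in 231:TKO 52 of the 53 genes lie below the control mean in each of the 3 libraries, and the parental libraries that stand apart are seen as columns in which MKI67 and CENPF are low.

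Among the genes of entry into mitosis, 10 of 11 fell and 1 rose, with a median of -0.28. CCNB1 (cyclin B1) stood at 237, 232 and 236 CPM with siNT and 183, 189 and 191 CPM with siMyc, and fell by 0.33 on the log2 scale (-0.33 ± 0.046, adjusted p = 1.32e-05). Its partner kinase CDK1 had 183, 171 and 185 CPM with siNT and 138, 143 and 165 CPM with siMyc (-0.28 ± 0.060, adjusted p = 0.0012). For both genes all siMyc libraries were below all siNT libraries, though the third siMyc library of CDK1 came close. FOXM1, the transcription factor of the G2 wave, fell less, from 204, 203 and 202 CPM to 183, 184 and 166 CPM (-0.19 ± 0.051, adjusted p = 0.00669). CDC25B, the phosphatase that starts CDK1 activation, was the gene that rose, from 181, 182 and 178 CPM to 211, 204 and 185 CPM (0.15 ± 0.052, adjusted p = 0.035), whereas its relative CDC25C fell (-0.27). The remaining genes of this role, cyclins CCNA2 and CCNB2, the CDK subunits CKS1B and CKS2, the CDK phosphatase CDKN3 and CDCA3, fell by between 0.23 and 0.40 on the log2 scale.

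All 3 mitotic kinases fell. PLK1, which acts at centrosomes, kinetochores and the midbody, had 131, 134 and 131 CPM with siNT and 101.7, 103 and 96.3 CPM with siMyc (-0.40 ± 0.050, adjusted p = 3.16e-06). AURKA, the centrosomal Aurora kinase, had 205, 198 and 205 CPM and 157, 152 and 167 CPM (-0.35 ± 0.049, adjusted p = 1.1e-05), and the centrosome kinase NEK2 fell by 0.31. In neither PLK1 nor AURKA did the groups overlap. The chromosomal passenger complex, in which AURKB is the kinase, INCENP the scaffold and BIRC5 and CDCA8 the targeting subunits, fell in all 4 genes with a range of -0.39 to -0.24. AURKB itself had 76.9, 82.0 and 80.6 CPM with siNT and 69.6, 71.2 and 61.7 CPM with siMyc (-0.24 ± 0.060, adjusted p = 0.0037), groups that did not overlap.

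The spindle checkpoint genes all fell, and 2 of them were among the 3 largest changes. BUB1B (BubR1), part of the complex that inhibits the APC/C, stood at 109.6, 101 and 112 CPM with siNT and 64.5, 67.9 and 72.0 CPM with siMyc (-0.66 ± 0.057, adjusted p = 2.38e-08). MAD2L1, the protein in that complex that captures CDC20, had 129, 126 and 129.7 CPM and 81.9, 80.9 and 93.6 CPM (-0.58 ± 0.057, adjusted p = 1.15e-07). Both genes left a clear gap between the groups. The checkpoint kinases BUB1 and TTK fell by 0.31 and 0.35, and BUB3, the kinetochore adaptor of BUB1, by 0.21. Downstream, CDC20 had 243, 241 and 236 CPM with siNT and 188, 184 and 169 CPM with siMyc (-0.41 ± 0.050, adjusted p = 2.13e-06), and UBE2C, the securin PTTG1 and separase ESPL1 fell too, with a range over the 4 genes of -0.41 to -0.26.

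Of the kinetochore genes 6 of 7 fell. CENPE, a motor that carries chromosomes to the spindle equator, had 131, 115 and 133 CPM with siNT and 86.3, 91.9 and 97.6 CPM with siMyc, with no overlap (-0.46 ± 0.060, adjusted p = 4.76e-06). In the NDC80 complex, which grips microtubules, NDC80, NUF2 and SPC25 fell by 0.40, 0.36 and 0.29, and SPC24 had -0.17 ± 0.068 with an adjusted p of 0.0663. CENPA, the histone of centromeres, and CENPF fell by 0.28 and 0.29. All 6 kinesins fell, led by KIF11 (Eg5), the motor that pushes the spindle poles apart and the gene with the largest change of the 53. KIF11 stood at 170.3, 152 and 173 CPM with siNT and 92.6, 96.1 and 109 CPM with siMyc (-0.73 ± 0.062, adjusted p = 1.69e-08), so that its lowest siNT library lay well above its highest siMyc library. KIF20A, a motor of cytokinesis, went from 156, 147 and 152 CPM to 110.5, 111 and 109.6 CPM (-0.46 ± 0.048, adjusted p = 3.26e-07), again without overlap, and KIF2C, KIF4A, KIF18A and KIF23 fell by between 0.24 and 0.42.

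All 8 spindle microtubule proteins fell, with HMMR at the head of them, at 17.0, 18.03 and 18.4 CPM with siNT and 11.9, 13.7 and 12.9 CPM with siMyc (-0.47 ± 0.077, adjusted p = 7.63e-05), the groups apart in spite of its low level. TPX2, PRC1, DLGAP5, NUSAP1, TACC3, GTSE1 and CKAP2 ran from -0.42 to -0.22. Cytokinesis showed the smallest median of any role (-0.22), with ECT2, ANLN and RACGAP1, which position and contract the cleavage furrow, falling by 0.25, 0.22 and 0.20. TOP2A had 750.5, 657 and 744 CPM with siNT and 536, 546 and 596 CPM with siMyc (-0.36 ± 0.054, adjusted p = 2.99e-05), and MKI67 (Ki-67), which coats mitotic chromosomes, 622, 572 and 636 CPM and 452, 455 and 465 CPM (-0.42 ± 0.048, adjusted p = 9.53e-07). In both the siMyc libraries were all below the siNT libraries.

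The wider mitotic machinery and the genes of DNA replication moved alongside. Of 119 other mitotic genes 83 fell and 4 rose, with a median of -0.29, and of 50 DNA replication genes 44 fell and 0 rose, with a median of -0.35, close to that of the 53. Among the other mitotic genes, CDC25A, the phosphatase of S phase entry, fell most (-0.69 ± 0.061, adjusted p = 2.85e-08), followed by the condensin subunit NCAPH (-0.60 ± 0.052, adjusted p = 2.29e-08). Of the regulators of the G2 wave, MYBL2 fell by 0.38, LIN9 by 0.44 and the APC/C inhibitor FBXO5 by 0.47, while WEE1, the kinase that inhibits CDK1 (0.23, adjusted p = 0.00476) and the CDK inhibitor CDKN1A (p21, 0.21, adjusted p = 0.00591) rose. The subunits and regulators of the APC/C moved least, with 5 of 17 lower, 1 higher and a median of -0.11.

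In parental 231 cells the same knockdown gave fold changes of similar size and no gene of the 53 past the threshold. edgeR's quasi-likelihood test called 0 of the 53, where it called 0.354% of the 23728 genes tested lower and 0.24% higher, and 32 of the 53 had an unadjusted p under 0.05. DESeq2 called 17, all lower, beside 4.34% of all genes lower and 3.3% higher. The median log2 fold change was -0.35, a change of -21.3%, against -0.0016 over all genes tested, and 52 of the 53 were negative, the exception being CDC25B. In 31 genes every siMyc library lay below every siNT library, as it did in 11.6% of all genes tested, and the siMyc libraries had 52, 52 and 50 genes below the siNT mean.

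The 2 libraries that stood apart lie on opposite sides of this comparison. With a factor for the pair in the fit 50 of the 53 genes fell, beside 13.1% of all genes, and with both libraries left out 49 fell, beside 10.9%. These fits were chosen after the data had been seen. In the fit of all 12 siRNA-treated libraries 26 fell, beside 3.65% of all genes, and with offsets for gene length 15 fell, beside 2.44%. Without the pair the values were -0.68 for KIF11, -0.64 for BUB1B, -0.51 for MAD2L1, -0.38 for CCNB1, -0.29 for CDK1, -0.46 for PLK1, -0.33 for AURKA and AURKB, -0.45 for CDC20, -0.42 for TOP2A, -0.43 for MKI67, -0.47 for CENPE, -0.48 for KIF20A and -0.34 for HMMR, and all of these passed. FOXM1 at -0.17 and CDC25B at 0.092 did not. MKI67, the gene that deviated most in the pair, stood at 149, 401 and 483 CPM with siNT and 337, 319.6 and 131 CPM with siMyc, so that the groups overlapped (-0.38 ± 0.45, adjusted p = 0.786). CENPE, with 89.9, 137 and 134 CPM and 101.5, 94.9 and 60.7 CPM, overlapped in the same way (-0.48 ± 0.22, adjusted p = 0.371).

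KIF11 again had the largest value of the 53, at 116, 140.0 and 142 CPM with siNT and 89.0, 87.3 and 74.0 CPM with siMyc (-0.66 ± 0.12, adjusted p = 0.0579), followed by BUB1B at 65.9, 84.9 and 79.3 CPM and 54.0, 51.4 and 44.4 CPM (-0.61 ± 0.13, adjusted p = 0.0772). MAD2L1 had 138, 116 and 110.4 CPM and 80.4, 79.3 and 94.2 CPM (-0.52 ± 0.12, adjusted p = 0.103). In these 3 genes no siMyc library reached any siNT library. TOP2A stood at 423, 558 and 561 CPM with siNT and 421, 416 and 308 CPM with siMyc, its highest siMyc library just below its lowest siNT library, which is the replicate that stood apart. For PLK1 the values were 130.3, 137 and 156 CPM and 107, 106 and 113 CPM, and for CDC20 263, 240.0 and 265 CPM and 187, 183 and 219.7 CPM, both clear of overlap. CCNB1 (-0.37 ± 0.10), PLK1 (-0.37 ± 0.10), AURKA (-0.30 ± 0.085), CDC20 (-0.37 ± 0.11) and TOP2A (-0.42 ± 0.16) also kept the groups apart, with adjusted p between 0.129 and 0.265. HMMR (-0.39 ± 0.13, adjusted p = 0.207) and KIF20A (-0.44 ± 0.13, adjusted p = 0.17), both among the larger responses in 231:TKO, did so too. CDC25B, the gene that rose in 231:TKO, had 168, 175 and 193 CPM and 193, 200.3 and 181 CPM, with overlap (0.11 ± 0.10, adjusted p = 0.692). The groups also overlapped for CDK1 (-0.33 ± 0.13), AURKB (-0.27 ± 0.14) and FOXM1 (-0.13 ± 0.13). By role the medians ran from -0.40 for the 2 chromosome genes to -0.24 for cytokinesis. Of the other mitotic genes 0 of 119 passed in either direction, with a median of -0.32, and of the replication genes 1 of 50 fell, with a median of -0.33. MYBL2 had -0.42, LIN9 -0.47, FBXO5 -0.32, CDC25A -0.46, NCAPH -0.58, WEE1 0.12 and CDKN1A 0.19, and none of these passed.

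Whether the response to siMyc differed between 231:TKO and parental 231 was tested in a single fit of the 12 siRNA-treated libraries. edgeR's quasi-likelihood test called 0 of the 53 genes and 0 of the 25812 genes tested, which is 0% in each direction, with 0 of the 53 and 1039 of all genes at an unadjusted p under 0.05, and DESeq2 called 0 of the 53. The differences, 231:TKO minus parental 231, ran from -0.12 to 0.22 with a median of 0.042, against 0.029 over all genes. All 53 of the 95% confidence intervals included 0, and the intervals had a median width of 0.594 log2 units and a widest of 2.74, for MKI67. The intervals, rather than the missed threshold, show how far the responses could differ. The fit holds the pair of parental libraries that stood apart, so the spread of that pair is part of the width of the intervals. No interval without the pair is given here. The genes with the smallest p were CDC25C (0.22, interval -0.032 to 0.48), PRC1 (0.18, -0.069 to 0.43), DLGAP5 (0.15), NEK2 (0.13), SPC24 (0.21) and NUF2 (0.13). For CCNB1 the difference was 0.073, for CDK1 0.082, for BUB1B -0.017, for AURKB 0.054 and for TOP2A 0.094, with standard errors of 0.11 to 0.17. PLK1 (-0.0004), AURKA (-0.027), CDC20 (-0.013), FOXM1 (-0.035) and MKI67 (-0.0018 ± 0.61) were near 0, the last with little precision. Of the regulators, MYBL2 had 0.064, LIN9 0.058, FBXO5 -0.12, WEE1 0.14 and CDKN1A 0.043. Across the 53 genes the responses in both populations, which share no library, had a Pearson correlation of 0.83 and a Spearman correlation of 0.65. These describe genes that are not independent replicates, and the libraries share base composition and gene length.

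**Figure D4:**
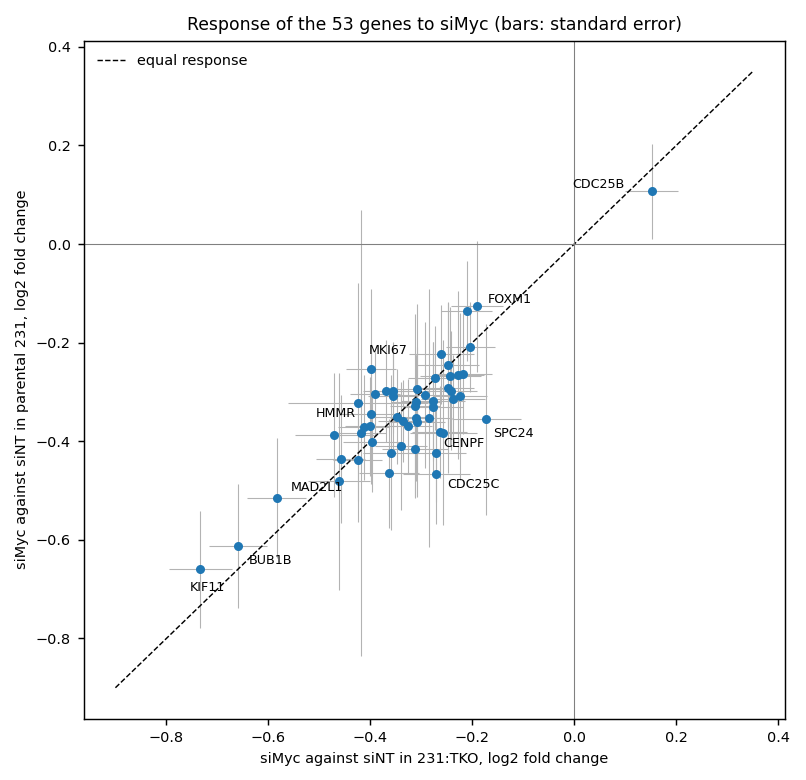
Log2 fold change under siMyc of each of the 53 genes in 231:TKO (horizontal axis) and in parental 231 (vertical axis), with bars for the standard error and a dashed line for equal response. Of the 53 points 52 lie below 0 on both axes, with KIF11, BUB1B and MAD2L1 at the far end, and CDC25B alone above 0.

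Untreated 231:TKO and parental 231 cells differed in a minority of the 53 genes. Of them 10 rose and 1 fell, with 5.43% of the 19965 genes tested higher and 4.18% lower, and the median was 0.089 against 0.0048 over all genes. CKS2 stood at 81.7 and 79.8 CPM in parental 231 and 137 and 119 CPM in 231:TKO (0.65 ± 0.087, adjusted p = 0.0172). The motor CENPE had 191 and 189 CPM and 314 and 274 CPM (0.62 ± 0.083, adjusted p = 0.0174), and cyclin A2 (CCNA2) 239 and 228 CPM and 369 and 354 CPM (0.62 ± 0.062, adjusted p = 0.0106). Each of these 3 genes was higher in both 231:TKO libraries by more than the libraries of either group differed. MAD2L1 (0.61 ± 0.089), SPC25 (0.60 ± 0.11), BUB1 (0.50 ± 0.066), CENPF (0.49 ± 0.059), MKI67 (0.44 ± 0.066), PTTG1 (0.39 ± 0.074) and TACC3 (0.31 ± 0.064) made up the rest of those that rose. BUB1 had 309 and 318 CPM in parental 231 and 462 and 429 CPM in 231:TKO, CENPF, a large kinetochore protein, 638 and 625 CPM and 907 and 878 CPM, and MKI67 1001 and 974 CPM and 1303 and 1402 CPM. None of these 3 genes had a 231:TKO library near the parental ones. Every 231:TKO library lay above every parental library in 28 of the 53 genes, against 30.2% of all genes tested. Every one lay below in 7 of the 53, against 27.5% of all genes tested. AURKB was the gene that fell, from 119 and 119 CPM to 82.7 and 88.5 CPM (-0.49 ± 0.064, adjusted p = 0.0169), its groups apart.

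The other named genes of mitosis did not pass. CCNB1 had 0.14 ± 0.071, CDK1 -0.041 ± 0.057, PLK1 0.10 ± 0.11, AURKA -0.052 ± 0.070, CDC20 0.17 ± 0.056, BUB1B 0.13 ± 0.072, TOP2A 0.088 ± 0.058 and FOXM1 0.043 ± 0.075, with adjusted p between 0.135 and 0.781. The 2 libraries of 231:TKO were themselves unlike. They differed by 43.6 times the sampling noise (chi-square per degree of freedom), against 2.14 for the 2 parental libraries. TTK stood at 189 and 109 CPM in them, against 157 and 161 CPM in parental 231. Over the 20 Mb window that holds TTK, the median log2 ratio of the genes to parental 231 was 0.033 and -0.53 in these 231:TKO libraries. Without 231:TKO replicate 1, 34 of the 53 passed (20 higher, 14 lower), beside 18.5% of all genes higher and 19% lower. Without replicate 2, 35 passed (30 higher, 5 lower), beside 18.1% and 17.9%. Without either parental library 0 of the 53 and 0 of all genes passed.

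Several of these genes lay in chromosome regions whose genes were shifted together. For each gene the median log2 ratio to parental 231 over the genes of its window of 20 Mb was taken, and 7 of the 53 were in windows shifted by more than 0.25 in the same direction in both untreated 231:TKO libraries. They were CCNA2, MAD2L1, CENPE and TACC3 on chromosome 4, BUB1 and SPC25 on chromosome 2, and AURKB on chromosome 17. The 6 on chromosomes 4 and 2 rose and AURKB fell, as their windows did, and all 4 of the 53 genes on chromosome 4 rose. With the window shift taken out as an offset, 4 genes passed (CKS2, CENPF, MKI67 and PTTG1), beside 4.09% of all genes higher and 5.02% lower, and none of the 7 did, with BUB1 at -0.044 and TACC3 at -0.10. With siNT the chromosome 4 windows stood at 0.19, 0.093 and 0.21 for CCNA2 and MAD2L1 in the 3 231:TKO libraries. They stood at 0.025, 0.0054 and 0.030 for TACC3 and -0.11, -0.19 and -0.13 for CENPE. The chromosome 2 windows stayed shifted, at 0.46, 0.44 and 0.47 for BUB1 and 0.32, 0.28 and 0.30 for SPC25. That of AURKB stood at -0.088, -0.028 and -0.033. The share of all genes in shifted windows is not given here. What set the shifts was not tested. In the untreated comparison 11 of the 119 other mitotic genes rose and 3 fell, with a median of 0.10. Of the replication genes 6 of 50 rose and 1 fell. Among the other mitotic genes the largest called changes were those of CDC26, an APC/C subunit (1.14 ± 0.24, adjusted p = 0.0494, at 1.30 and 1.32 CPM in parental 231 and 2.69 and 3.14 CPM in 231:TKO), and the repressor E2F5 (1.12 ± 0.17, adjusted p = 0.0234). MYBL2 (-0.25), LIN9 (0.26), FBXO5 (-0.060), WEE1 (-0.090), CDKN1A (-0.17) and MYC (0.064) did not pass.

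**Figure D5:**
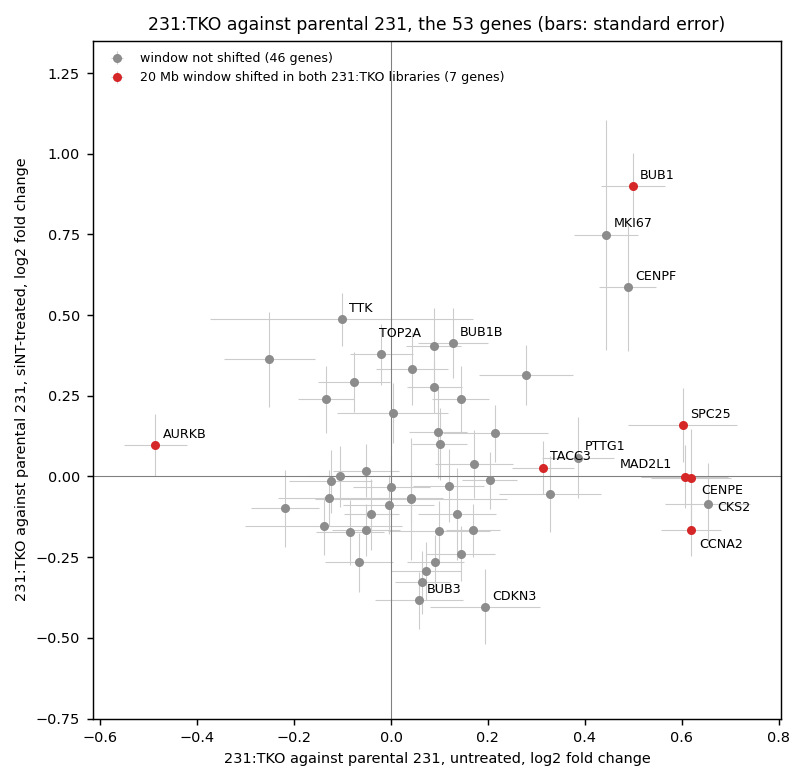
Log2 fold change of 231:TKO against parental 231 for each of the 53 genes, untreated (horizontal axis) and with siNT (vertical axis), with bars for the standard error and the 7 genes in shifted windows in red. On the siNT axis the 4 genes of chromosome 4 lie near or below 0, and BUB1 and CENPF are above 0 in both comparisons.

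With siNT 17 of the 53 genes differed between the populations. Of them 10 rose and 7 fell in 231:TKO, where 16.1% of the 23310 genes tested were higher and 20.7% lower, and the median was -0.0034 against -0.029 over all genes, so that the 53 were called no more often than genes at large. The siNT-treated 231:TKO libraries were counted with an earlier Ensembl release than the parental ones, and between these releases the exonic lengths of CDC25B, CDC25C and TACC3 differ, so release and genotype cannot be told apart here. BUB1, the checkpoint kinase of the kinetochore, stood at 119, 148 and 149 CPM in parental 231+siNT and 265, 247 and 259.8 CPM in 231:TKO+siNT (0.90 ± 0.10, adjusted p = 4.99e-05). TTK (MPS1), which starts checkpoint signalling, had 76.6, 78.9 and 78.1 CPM and 111, 103.7 and 111 CPM (0.49 ± 0.083, adjusted p = 0.000838). In both, all 231:TKO libraries lay above all parental libraries. The same held for 15 of the 53 genes in total, against 23.3% of all genes tested. In 13 of the 53 all 231:TKO libraries lay below all parental ones, against 28.1% of all genes tested. CENPF (0.59 ± 0.20), BUB1B (0.41 ± 0.11), TOP2A (0.40 ± 0.12), CDCA3 (0.38 ± 0.095), FOXM1 (0.33 ± 0.11), KIF4A (0.31), CKAP2 (0.29) and CDCA8 (0.28) also rose. In BUB1, CENPF, BUB1B, TOP2A and FOXM1 parental 231+siNT replicate 1 was the lowest of all 6 libraries, and for CENPF the parental replicates stood at 172, 302 and 316 CPM in their order.

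Among those that fell, CDKN3, a phosphatase of CDKs, had 120.5, 91.9 and 91.6 CPM in parental 231+siNT and 78.7, 71.7 and 77.8 CPM in 231:TKO+siNT (-0.40 ± 0.12, adjusted p = 0.018). BUB3 had 265, 246 and 229 CPM and 189.9, 186 and 188 CPM (-0.38 ± 0.087, adjusted p = 0.00512). The 231:TKO libraries of both genes were close to each other and below every parental library. BIRC5 (-0.33 ± 0.10), KIF18A (-0.29), DLGAP5 (-0.27), NDC80 (-0.27) and CCNB1 (-0.24 ± 0.084, adjusted p = 0.0452) fell as well. CDK1 (-0.12 ± 0.11), PLK1 (-0.17 ± 0.093), AURKA (-0.17 ± 0.081), AURKB (0.10 ± 0.10), CDC20 (-0.17 ± 0.083) and MKI67 (0.75 ± 0.36) did not pass. Without parental 231+siNT replicate 1 the count that passed was 31, beside 22.4% of all genes higher and 25.8% lower, and CENPF stood at 0.38, TOP2A at 0.30, FOXM1 at 0.24, MKI67 at 0.41 and CDKN3 at -0.24, all past the threshold. Without 231:TKO+siNT replicates 1, 2 and 3 it was 4, 7 and 4, beside 12% to 12.5% higher and 15.4% to 16.7% lower. With offsets for gene length 17 rose and 2 fell, beside 19.7% and 20.5% of all genes, with a median of 0.125. With window offsets 8 of the 17 genes kept their call. TTK and CKAP2 were among those that did not pass, and stood at -0.15 and -0.031.

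Of the other mitotic genes 28 of 119 rose and 19 fell, with a median of 0.10, and 15 of the 50 replication genes rose and 6 fell. MYBL2 fell most, from 123, 123 and 137 CPM to 52.4, 51.8 and 50.03 CPM (-1.31 ± 0.089, adjusted p = 9.66e-07), and the kinesin KIF18B rose most, from 29.8, 41.0 and 37.8 CPM to 80.7, 84.2 and 82.8 CPM (1.20 ± 0.12, adjusted p = 1.65e-05). Both sets of libraries were far apart. FBXO5 rose (0.52) and CDKN1A fell (-0.40), and LIN9 (0.049), WEE1 (0.21) and MYC (0.075) did not pass.

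BUB1 and CENPF were the only 2 of the 53 that passed in the same direction in both the untreated and the siNT-treated comparison, and 0 passed in opposite directions, where 4.27% of the 19074 genes tested in both passed in the same direction and 1.42% in opposite ones. A test of the difference between those effects, chosen after the data had been seen and fitted to the 10 libraries together, called 4 of the 53 lower and 1 higher, with 7.91% of the 25112 genes tested lower and 6.2% higher. CCNA2 (-0.79 ± 0.13, adjusted p = 0.00079), CKS2 (-0.74 ± 0.19, adjusted p = 0.0182), MAD2L1 (-0.61 ± 0.16, adjusted p = 0.018) and CDKN3 (-0.60 ± 0.19, adjusted p = 0.0468) had lower 231:TKO effects with siNT than without it, and AURKB (0.58 ± 0.15, adjusted p = 0.0166) had a higher one. The 5 calls are a smaller share of the 53 than the calls among all genes. CCNA2, MAD2L1 and AURKB lay in windows shifted in untreated 231:TKO, and with window offsets 2 of the 5 genes kept their call. Without parental 231+siNT replicate 1 the count was 16, beside 7.44% of all genes higher and 13.2% lower. The untreated and siNT-treated libraries also differed in sequencing as single reads or pairs, which cannot be told apart from the treatment.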

How the data were processed

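RNA of 16 MDA-MB-231 libraries was analysed. The authors used STAR for alignment to GRCh38 and featureCounts for counting per gene, which per the file headers was version 1.6.3 with Ensembl release 102, or release 104 for siRNA-treated parental 231. The deposited values are raw counts per gene, not normalized. The headers show single-read counting for untreated and paired counting for siRNA-treated libraries. Samples were grouped by their labels.

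A gene was tested if its counts over a comparison's libraries summed to above 5, with edgeR 4.0.16 (TMM, robust quasi-likelihood F test, R 4.3.3), with Benjamini-Hochberg adjustment over all genes tested and a threshold of 0.05. The difference of the siMyc responses used all 12 siRNA-treated libraries, and every other comparison its own libraries. The study used DESeq2, and DESeq2 1.42.0 was an alternative. Confidence intervals of log2 fold changes are at 95%. The scripts were tested on simulated data. CPM use TMM factors, and TPM use the exonic length in the count tables. Between 18953668 and 59799444 counts per library were available. Replicate pairs differed by 2.14 to 112 times the sampling noise (chi-square per degree of freedom), so in the closest pairs counting error was a large share of the spread.

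The other alternatives were DESeq2 size factors, other filters, a replicate block, offsets for windows of 20 Mb or for gene length, thinning to equal depth, and leaving out libraries. Replicate numbers were not taken to pair the samples, since same-numbered libraries did not regularly deviate together, with correlations from -0.76 to 0.57. The 53 genes, the other lists and the tests were chosen with earlier results of these data known. Named genes were 10 fixed ones (CCNB1, CDK1, PLK1, AURKA, AURKB, CDC20, BUB1B, TOP2A, MKI67 and FOXM1), the 6 of the 53 with the largest called change in each comparison (the smallest p for the difference of the responses), the 2 largest called among the other mitotic genes, and MYBL2, LIN9, FBXO5, WEE1, CDKN1A, MYC and TXNIP. Further members are named to account for the set.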

Additional observations from a re-analysis of the deposited data

Results flagged for a closer look

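The effect of 231:TKO against parental 231 differed between siNT-treated and untreated cells for 5 of the 53 genes. It also differed for 4 of the other mitotic genes named here. The test was edgeR's quasi-likelihood test of the difference itself, with Benjamini-Hochberg adjustment. Over all genes tested 7.91% were lower and 6.2% higher, a larger share than among the 53, so the count says nothing particular about them. Lower with siNT than without it were CCNA2 (-0.79 on the log2 scale), CKS2 (-0.74), CDKN3 (-0.60) and MAD2L1 (-0.61), and AURKB was higher (0.58). CCNA2, MAD2L1 and AURKB lay in windows shifted in untreated 231:TKO, and with window offsets 2 of the 5 genes kept their call. Of the 119 other mitotic genes 9 were lower and 7 higher. Among them CDC26 (-1.47), MYBL2 (-1.06) and E2F5 (-1.57) were lower and FBXO5 (0.57) was higher. CDC26 and E2F5 are named because their called changes were the largest in this test. The comparison was chosen after the data had been seen. Sequencing as single reads or pairs differed with the treatment, and parental 231+siNT was counted with a later Ensembl release than the other groups. Neither can be told apart from the treatment.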

How the results depend on the processing

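Under siMyc in 231:TKO 51 of the 53 genes fell and 1, CDC25B, rose in the main fit. With any library left out 49 to 52 genes were called in either direction, with medians of -0.35 to -0.30. In the fit of all 12 siRNA-treated libraries 19 were called. In parental 231 the count of 0 became 17 with DESeq2, 2 without a filter and 2 with more than 5 counts in every library, 15 with gene length offsets, 26 in the fit of 12 libraries, 50 with a factor for the 2 parental libraries that stood apart and 49 without them. It was 0 to 2 with a library left out, 2 without parental 231+siNT replicate 1, and the median stayed between -0.378 and -0.331, or at -0.318 with window offsets. For the difference of the responses the median was 0.0043 with DESeq2 and with its size factors, 0.00041 without those 2 libraries and -0.035 to 0.061 with a library left out, where 0 genes were called. For untreated 231:TKO against parental 231 the count of 11 became 4 and the median 0.057 with window offsets, where BUB1 was at -0.044 and TACC3 at -0.10. Leaving out a library gave 0 (either parental 231 replicate) to 35 (231:TKO replicate 2), and medians of 0.049 to 0.110. In those fits BUB3 ranged from -0.079 to 0.17, NUF2 from -0.11 to 0.084, CDKN1A from -0.69 to 0.19, MYC from -0.14 to 0.22 and TTK from -0.57 to 0.24, the ends being the fits without a 231:TKO replicate. With siNT the count of 17 ranged from 4 to 31 and the median from -0.014 to 0.063 with a library left out, and the median was 0.125 with gene length offsets, where UBE2C was at 0.24. Window offsets there kept 8 of the 17 calls. They put CDC25B at 0.27, TTK at -0.15, CKAP2 at -0.031, FBXO5 at -0.091 and CDKN1A at 0.033. For the difference of the 231:TKO effects the count of 5 became 14 with DESeq2, 8 with more than 5 counts in every library, 9 with gene length offsets and 1 to 16 with a library left out, the lowest without either parental 231 replicate, 3 without any of the 231:TKO+siNT replicates and the highest without parental 231+siNT replicate 1, and FBXO5 was at -0.39 with window offsets. Window offsets kept 2 of the 5 calls for that difference. The cause of these changes was not tested. Where an omission left 1 untreated library in a group, that library was assumed to vary like the other group.

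With the replicate number as a block, 6 of the 53 genes were called for untreated 231:TKO against parental 231, 53 under siMyc in 231:TKO, 0 under siMyc in parental 231 and 13 for the siNT-treated populations. Same-numbered libraries correlated at 0.01 in the untreated comparison, and at -0.76, 0.57 and -0.70 in parental 231 under siMyc, so the numbers were not taken to pair the samples.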
